A study of Rattus norvegicus with 4 samples.

Results

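The genes described here encode the contractile, scaffold, calcium and energy proteins of muscle, with the smooth muscle and non-muscle relatives of the same families. They were taken from the gene tables by symbol: the myosin heavy chains, numbered myosin light chains, troponins, tropomyosins, alpha-actinins, myosin binding proteins C, myomesins and myozenins, Ldb3, Atp2a1 and 13 further muscle genes. The rule found 53 of 18957 entries. They were divided by textbook knowledge into 38 genes of striated muscle, 4 genes used by both muscle and other cells, 2 of smooth muscle and 9 of non-muscle cells. The division was meant to keep muscle genes apart from their non-muscle paralogs, and the place of Myl6b among the latter is uncertain.

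The libraries are digital gene expression tags of hindlimb footpad skin in Sprague Dawley rats, an outbred stock, from a model of radiation dermatitis. Per the labels, skin was collected on days 0, 3, 6 and 9, and 10 Gy was given 4 times (days 1, 2, 4 and 5) as 9 MeV electrons at 500 cGy/min. The day 0 skin was therefore taken before irradiation by the protocol, the day 3 skin after the first pair of irradiations, and the day 6 and day 9 skin after all 4. The labels disagree in part: the day 0 description puts collection at day 1, and those of days 3, 6 and 9 name 1 irradiation day each, days 2, 4 and 5. The titles were followed here. The labels give no genotype beyond the stock, no age, sex or pooling, and name the tissue as skin without mention of muscle. The 4 libraries held 3360368 to 3592019 tags and 1952921 to 1982608 gene counts. With 1 library a day the spread between animals is unknown, and no test across animals could be run. Intervals are exact 95% Clopper-Pearson intervals that cover counting error only.

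The sarcomere is the repeating unit of striated muscle. Thick filaments of myosin pull on thin filaments of actin when calcium binds troponin and moves tropomyosin aside. Titin, myomesin, alpha-actinin and the proteins of the Z disc hold the filaments in register, and the sarcoplasmic reticulum stores and releases the calcium. Fast and slow fibres use different genes for most of these parts, while non-muscle cells build stress fibres and the cytokinetic ring from paralogs of their own. In skin, striated muscle is known from the layer beneath the dermis, and smooth muscle from vessel walls.

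The assay reads 21 bases of a transcript from a CATG site onward, and a gene count is the sum of the copies of the gene's tags. The main tags of 7 striated members and of 4 members that remained in every library show what was read. CATG, the cutting site, is in capitals, and each tag is printed 5′ to 3′.
Myl1: CATGtaccacctttatgatct
Myh2: CATGtgattctatttaatcct
Myh1: CATGagagaagagtgaaagaa
Tnnt1: CATGtcccattgtgtggagcc
Tnni2: CATGgagggtcggaagaagat
Myot: CATGtcaaaagagaataaaat
Cox6a2: CATGagcgcccagaattcatc
Tnnt2: CATGatgcattttggagggta
Myl9: CATGtcccttcagaggatgac
Myl12a: CATGcccttgcttttctgcct
Myl6b: CATGaggacagcaacggttgc
On days 0, 3, 6 and 9 the Myl1 tag had 1991, 5306, 1 and 4646 copies. The Myh2 tag had 976, 2110, 0 and 1601 copies, and the Tnni2 tag had 217, 498, 0 and 559. These 3 tags were thus almost absent from the day 6 library and abundant in the others. The Myl12a tag, from a non-muscle light chain, had 671, 926, 835 and 1146 copies, with no gap on day 6. For 25 of the 38 striated members the main tag lay at the CATG site nearest the 3′ end.

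Summed over the 38 striated members, gene counts were 7895, 14892, 106 and 14314 on days 0, 3, 6 and 9. These were 0.398% (0.389 to 0.407), 0.757% (0.745 to 0.769), 0.00539% (0.00441 to 0.00651) and 0.733% (0.721 to 0.745) of all gene counts. The day 6 library was lowest and the day 3 and day 9 libraries were close to each other. The 9 non-muscle paralogs summed to 5417, 4917, 4866 and 5451 counts, or 0.273, 0.25, 0.247 and 0.279% of gene counts, with no such gap. Of these counts, 1659, 1957, 1727 and 1565 were those of Myl6b, whose level and class are uncertain for reasons given below. The 2 smooth muscle members, Myl9 and Myh11, summed to 367, 802, 568 and 521 counts. In a tissue sample, fewer muscle cells and less RNA per muscle cell cannot be told apart.

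**Figure D1:**
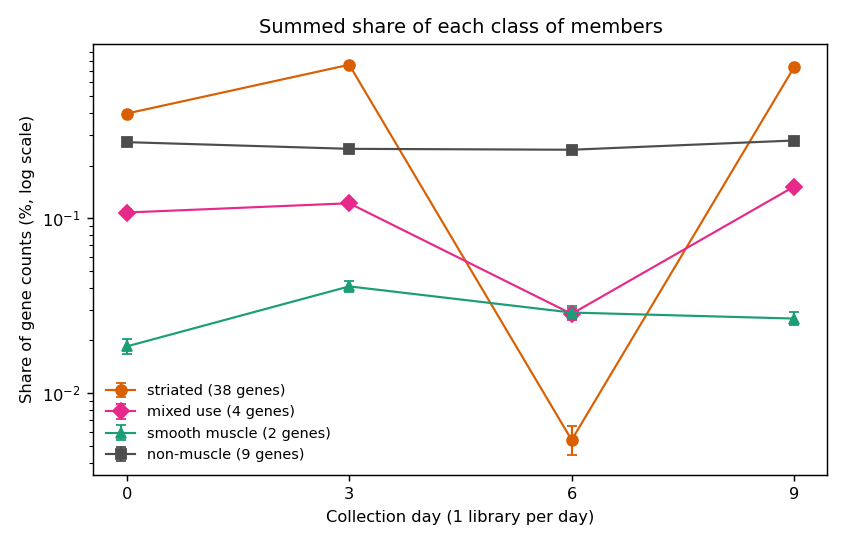
Share of all gene counts (%, log axis) held by each class of members in the library of each collection day, with exact 95% intervals for counting error. The striated share drops to 0.00539% on day 6 and lies between 0.398 and 0.757% on the other days, while the non-muscle share stays between 0.247 and 0.279%.

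A member was called higher or lower by a rule of size, which asked for scaled counts that differed 2-fold or more, 50 or more counts in one of the libraries compared, and an interval of the ratio without 1. In the day 6 library 20 striated members were lower than on day 0 and none was higher, among 21 with enough counts. Over all entries, 13.1% were lower and 7.48% higher, 20.6% in either direction. Against day 3, 23 of 24 were lower on day 6, beside 6.74% of all entries lower and 2.84% higher (9.59% in either direction). From day 6 to day 9 the same number, 23 of 24, were higher, beside 10.0% of all entries higher and 4.37% lower (14.4% in either direction). The comparisons share the day 6 library. Over the 28 striated members that averaged 10 or more counts in these libraries, the median log2 ratio of day 6 to day 0 was -7.1, or -4.99 with libraries at 0 set to 3 counts, and over all entries of that mean count it was 0.02. On day 6, 30 of the 38 striated members had 0 counts, against 3, 1 and 1 on days 0, 3 and 9. Of all 18957 entries, 14972 had counts above 0 on day 6, and 15236, 15608 and 15501 had on days 0, 3 and 9.

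**Figure D2:**
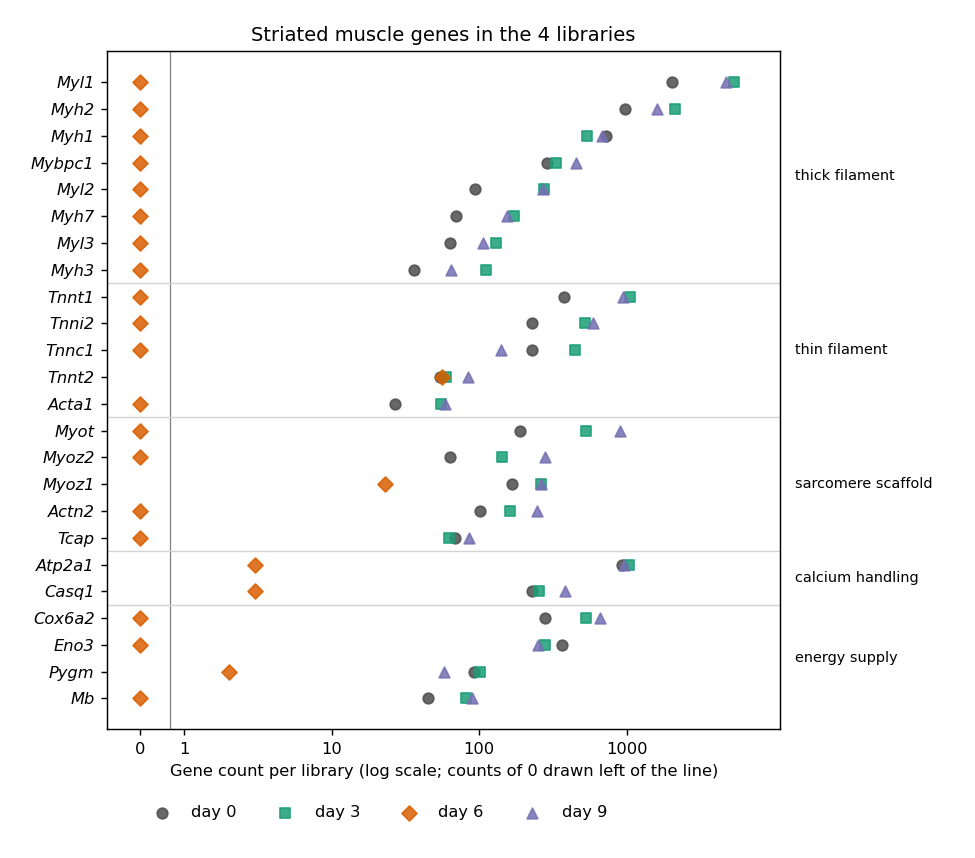
Gene counts (log axis) of the 24 striated members with at least 50 counts in a library, 1 point per library, ordered by role in the sarcomere or fibre. The day 6 points of 19 genes lie at 0, left of the line, and only the day 6 point of Tnnt2, at 56 counts, lies among those of the other days.

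The thick filament genes included heavy and light chains of both fibre types. Myl1, the essential light chain of fast fibres, had 2021, 5394, 0 and 4705 counts on days 0, 3, 6 and 9. Myh2, the heavy chain of type 2A fibres, had 982, 2139, 0 and 1613, and Myh1, that of type 2X fibres, had 730, 537, 0 and 687. All 3 were thus at 0 on day 6, but Myl1 and Myh2 were highest on day 3, where Myh1 had its lowest count among the other days. Among the slow genes, Myl2, the regulatory light chain of slow and ventricular muscle, had 94, 277, 0 and 273 counts, and Myl3, its essential light chain partner, had 63, 131, 0 and 106. Myh7, the slow and cardiac heavy chain, had 70, 173, 0 and 155. Leaving out day 6, the 3 slow genes were lowest on day 0. Mybpc1, the slow myosin binding protein C that links myosin to the thin filament, had 289, 332, 0 and 452 counts. Myh3, the embryonic heavy chain that is also made in regenerating fibres, had 36, 112, 0 and 64 counts and was 3.07-fold (2.11 to 4.64) higher on day 3 than on day 0. With the day 6 library at 0 set to 3 counts, the day 3 library was 1740-fold higher for Myl1, 173-fold for Myh1 and 55.7-fold for Myh7. The lower ends of the exact intervals, which use the count of 0 itself, were 1410, 140 and 44.8-fold.

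Myh4, the heavy chain of type 2B fibres, had 0, 5, 0 and 5 counts and Myh13, that of extraocular muscle, had 0, 3, 0 and 0. The main tags of Myh1 and Myh4 differ at 2 of 21 bases, shown in capitals here because no other pair among the 5 heavy chains compared was as alike.
Myh1: catgagagaagagtGaaAgaa
Myh4: catgagagaagagtAaaGgaa
The main tags of Myh1, Myh2, Myh3 and Myh7 differ from one another at 11 to 15 bases. Myh2 made up 57.4% (55.0 to 59.7) of the counts of Myh1 and Myh2 together on day 0, 79.9% (78.4 to 81.4) on day 3 and 70.1% (68.2 to 72.0) on day 9. The shares of the 3 libraries differed beyond counting error, in a pair chosen after its values were seen.

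The thin filament genes repeated the gap, with 1 exception. Tnnt1, the slow troponin T that anchors troponin to tropomyosin, had 375, 1051, 0 and 954 counts. Tnni2, the fast troponin I that blocks contraction at rest, had 229, 525, 0 and 597. Both were more than 2-fold higher on days 3 and 9 than on day 0. Tnnc1, the slow and cardiac troponin C that binds calcium, had 229, 444, 0 and 140 counts, and among the days other than day 6 its lowest count was on day 9. Acta1, the skeletal alpha actin, had 27, 55, 0 and 59 counts. The exception was Tnnt2, the cardiac troponin T that is also made in embryonic skeletal muscle, with 54, 60, 56 and 84 counts. Its ratio of day 6 to day 0 was 1.07-fold (0.721 to 1.58), an interval that excludes the decrease of the members called lower. Of its copies, 99.2% were in the tag printed above. Its day 6 count lay between those of days 0 and 3.

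Among the genes of the Z disc, Myot, which encodes the actin-bundling protein myotilin, had 189, 534, 0 and 907 counts. Myoz2, a myozenin of slow and cardiac muscle, had 63, 142, 0 and 278, and Actn2, the alpha-actinin that crosslinks thin filaments, had 102, 161, 0 and 246. Leaving out day 6, the counts of these 3 were lowest on day 0 and highest on day 9. Tcap, the telethonin that caps titin, had 69, 62, 0 and 85 counts. Myoz1, the myozenin of fast fibres, had 166, 262, 23 and 264 and was the one of these 5 scaffold genes with counts on day 6. Its day 6 counts came from other tags than its main one.

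Calcium handling and energy genes followed. Atp2a1, the calcium pump of fast fibres, had 933, 1035, 3 and 966 counts, and Casq1, which buffers calcium inside the reticulum, had 229, 253, 3 and 380. Their day 6 libraries held 3 counts each, and the ratios of day 0 to day 6 were 259-fold (103 to 1470) and 63.8-fold (25.1 to 362). Cox6a2, the muscle form of a cytochrome c oxidase subunit, had 282, 528, 0 and 662 counts. Eno3, the muscle enolase of glycolysis, had 364, 280, 0 and 252, and Pygm, the glycogen phosphorylase of muscle, had 92, 102, 2 and 58. Mb, the oxygen store myoglobin, had 45, 82, 0 and 90 counts. Eno3 was thus highest on day 0, while Cox6a2 and Mb were highest on day 9.

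The remaining 14 striated members had at most 47 counts in any library, and 11 of them were at 0 on day 6. Neb, the thin filament ruler nebulin, had 28, 46, 0 and 44 counts, Ttn, the giant spring protein titin, had 15, 25, 0 and 27, and Ldb3, a Z-disc protein, had 28, 16, 0 and 37. Ckm, the muscle creatine kinase, had 6, 7, 0 and 12. The low counts of Ckm and Acta1, both known as abundant transcripts of muscle, describe assigned tags alone, and 56.9 to 60.6% of the tags seen at least 2 times stood in a gene. Pvalb, the calcium buffer parvalbumin, had 31, 47, 11 and 34 counts, Myl4, an atrial and embryonic light chain, had 27, 44, 3 and 26, and Myh7b, a slow-type heavy chain, had 5, 7, 5 and 8. Those 3 kept some counts on day 6. A further 11 striated symbols, among them Tnnt3 and Myom2, matched no entry and were not analysed here.

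The gap on day 6 was examined tag by tag, single copies included, which the gene tables leave out. Of the 31 tags of striated members with at least 10 copies on each of days 0, 3 and 9, 19 had 0 copies on day 6, 7 had 1 copy and 5 had 2 or more. All 24 such tags of the non-striated members had 2 or more copies. Of the 30 striated members with a gene count of 0 on day 6, 8 had a single copy of a tag there, among them Myl1, Cox6a2, Eno3, Myh7, Myoz2 and Tcap. With single copies included, striated members had 7930, 14915, 115 and 14338 copies. A count of 0 in the gene tables therefore did not exclude a read. Most of the day 6 copies were those of Tnnt2, Myoz1 and Pvalb, with gene counts of 56, 23 and 11. The source of the single copies of the other genes was not tested.

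The 4 members of mixed use were Tpm1, Tpm2, Tpm3 and Des. Tropomyosins are coiled coils along actin, and these genes make muscle and non-muscle isoforms by alternative splicing. Tpm1 had 885, 946, 388 and 1137 counts and Tpm2 had 728, 1030, 38 and 1249. Tpm2 was 18.4-fold (13.4 to 26.5) lower on day 6 than on day 0, and Tpm1 was 2.21-fold (1.96 to 2.5) lower. Des, the intermediate filament desmin of striated and smooth muscle, had 466, 392, 90 and 536 counts and was 5.01-fold (4.01 to 6.38) lower. Tpm3 had 61, 36, 42 and 53 counts and did not pass the rule. Tpm1, Tpm2 and Des were also lower on day 6 than on day 3 and higher on day 9 than on day 6. All 4 kept counts on day 6, and Tpm2 had the largest fold of the 4.

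Within Tpm1 and Tpm2 the tags differed in their day 6 levels. The main tags of each are shown with those of Myoz1, since they separate within a gene, and the number after the symbol is the CATG site counted from the 3′ end.
Tpm1 site 15: CATGaaagtcattgaaagccg
Tpm1 site 1: CATGtcagggtaagagatcta
Tpm2 site 5: CATGttgcacagccagtctga
Tpm2 site 6: CATGaaggatgaggagaagat
Myoz1 site 10: CATGtagactacagcgtggat
Myoz1 site 2: CATGagttcaaatcccagcaa
The Tpm1 tag at site 15 had 663, 465, 5 and 700 copies on days 0, 3, 6 and 9, and the tag at site 1 had 200, 454, 370 and 395. The first tag carried the gap of the striated genes and the second did not. Of both together, the site 15 tag made up 76.8% (73.9 to 79.6), 50.6% (47.3 to 53.9), 1.33% (0.434 to 3.08) and 63.9% (61.0 to 66.8). For Tpm2 the site 5 tag had 624, 808, 5 and 966 copies and the site 6 tag had 71, 131, 20 and 203. The share of the site 5 tag in the pair was 20% (6.83 to 40.7) on day 6 and between 82.6 and 89.8% on the other days. For Myoz1 the site 10 tag had 155, 240, 0 and 230 copies and the site 2 tag 9, 13, 17 and 19. A gene count for Tpm1, Tpm2 or Myoz1 thus summed tags that differed in their day 6 level relative to the other days. Both Tpm2 tags were lowest on day 6 and highest on day 9, and the site 5 tag fell further. The 3 pairs were chosen after their values were seen, and which isoform each tag reads was not tested.

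**Figure D3:**
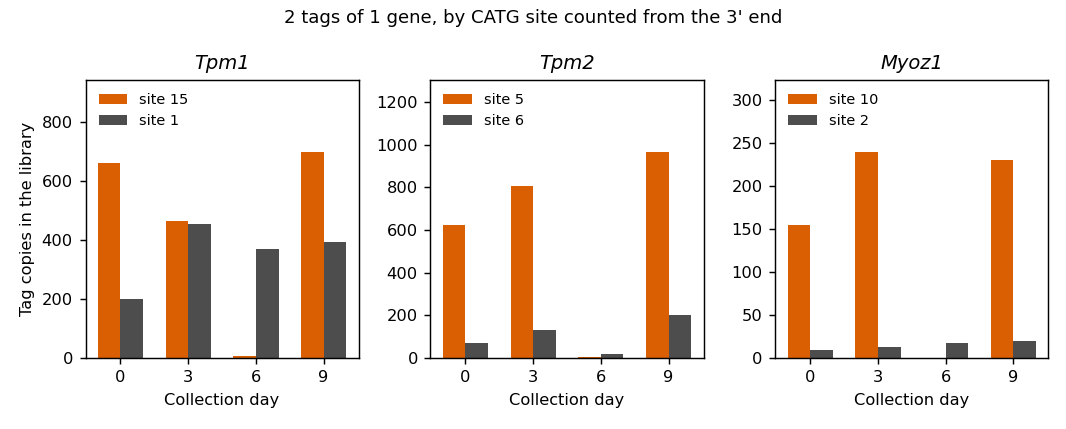
Copies of 2 tags of the same gene in each library for Tpm1, Tpm2 and Myoz1, with the tag sites counted from the 3′ end of the gene. On day 6 the Tpm1 tag at site 15 has 5 copies and the tag at site 1 has 370, while on day 0 they have 663 and 200.

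The smooth and non-muscle paralogs gave the contrast. Myl9, the regulatory light chain of smooth muscle, had 321, 751, 538 and 490 counts and was 2.33-fold (2.04 to 2.66) higher on day 3 than on day 0. Myh11, the smooth muscle heavy chain, had 46, 51, 30 and 31 counts and passed the rule in no comparison. Neither was close to 0 on day 6. Among non-muscle light chains, Myl12a, which regulates non-muscle myosin, had 684, 939, 853 and 1169 counts, while its near copy Myl12b had 180, 92, 70 and 84. On day 9 against day 0 the Myl12a ratio was 1.79-fold (1.63 to 1.97), short of the rule, and Myl12b was 2.04-fold (1.57 to 2.68) lower. The 2 genes encode near copies of a protein, but their main tags differ at 15 of 21 bases. Myl6b, an essential light chain, had 1659, 1957, 1727 and 1565 counts, of which 96.5% of tag copies were in 1 tag at the eleventh CATG site. No entry had the symbol Myl6, and how the tags of these close relatives were divided is not known, so the Myl6b level is uncertain. Whether muscle also uses Myl6b was not tested, so its place in the non-muscle class is uncertain too.

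Of the other non-muscle members, Actn4, an alpha-actinin of the cell cortex, had 1431, 766, 1072 and 916 counts, and Actn1, that of stress fibres, had 341, 250, 271 and 460. Actn4 was 1.88-fold (1.72 to 2.05) lower on day 3 than on day 0, short of the rule. Tpm4, a tropomyosin of non-muscle cells, had 932, 802, 787 and 1165 counts. Myh14, the heavy chain of non-muscle myosin IIC found in epithelia, had 175, 83, 73 and 74 counts and was lower than on day 0 on days 3, 6 and 9, by 2.11-fold (1.62 to 2.79), 2.32-fold (1.76 to 3.10) and 2.24-fold (1.71 to 3.00). Its level was thus high in the day 0 library and similar in the 3 others, a comparison that rests on the shared day 0 library. Myh10 and Myh9, the heavy chains of non-muscle myosins IIB and IIA, had at most 28 and 5 counts. Among the 7 non-muscle members with enough counts on day 6 against day 0, 2 were lower, Myh14 and Myl12b, and none was higher, beside 13.1% of all entries lower and 7.48% higher. With so few members, 2 lower is not a result about the class. Of the reference genes, Actb, the non-muscle actin, had 3848, 1774, 876 and 2316 counts and Gapdh, a glycolytic enzyme, had 2515, 2148, 1537 and 2377. Both were lowest on day 6 but far from 0. Actb was more than 2-fold lower on day 6 than on day 0, so a decrease on day 6 was not limited to muscle genes.

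The libraries of days 3 and 9 were also set against day 0, since they were taken before and after the low point. On day 3, 11 of 24 striated members were higher than on day 0 and none was lower, beside 8.54% of all entries higher and 7.86% lower (16.4% in either direction). On day 9 it was 11 higher and none lower of 24, beside 10.7% higher and 10.5% lower (21.2% in either direction). The median log2 ratios were 0.71 and 0.8, against -0.02 and -0.01 over all entries. Among the 15 non-striated members, Myl9 was higher and Myh14 lower on day 3, and Myh14 and Myl12b were lower on day 9. Both comparisons share the day 0 library, in which the sum of fibroblast markers was also low, at 24005 counts against 73654 to 108288 on the later days. That sum rested mainly on Sparc, Dcn, Col1a1 and Col3a1. Of 12 fibroblast entries with enough counts, 8 were higher on day 3 and 5 on day 9 than on day 0, and none was lower. The day 0 library also held 0 counts of Eif2s3y, a gene of the Y chromosome, against 118, 92 and 130 on days 3, 6 and 9. The labels give no sex. The part of tissue makeup or sex in the muscle result was not tested.

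The members did not move by 1 factor. Myl2 was 2.92-fold (2.31 to 3.75) higher on day 3 and 3.04-fold (2.40 to 3.90) higher on day 9 than on day 0. Tnnt1 was 2.79-fold (2.48 to 3.15) and 2.67-fold (2.37 to 3.02) higher. Atp2a1 was 1.10-fold (1.01 to 1.21) and 1.09-fold (0.992 to 1.19) of its day 0 level, and Myh1 was 0.732-fold (0.653 to 0.819) and 0.988-fold (0.889 to 1.10) of it. Genes of each fibre type stood on both sides. The fast genes Myl1 (2.66 and 2.44-fold) and Tnni2 (2.28 and 2.73-fold) were higher on both days as well. The slow genes Mybpc1 (1.14 and 1.64-fold) and Tnnc1 (1.93 and 0.643-fold) passed on neither. Eno3 was 0.766-fold (0.653 to 0.897) and 0.727-fold (0.616 to 0.856) of its day 0 level. Myot stood at the other end, 2.81-fold (2.38 to 3.34) higher on day 3 and 5.03-fold (4.30 to 5.92) higher on day 9, and Myoz2 was 4.60-fold (3.51 to 6.19) higher on day 9. Against day 0, 5 of the 7 slow members with enough counts were higher on day 3 and 4 of 7 on day 9, and of the fast members 3 of 6 and 2 of 6 were, beside 8.54 and 10.7% of all entries. Over members averaging 10 or more counts, the median log2 ratios were 1.16 and 1.21 for slow genes and 0.65 and 0.74 for fast ones. The difference between the fibre types was not tested.

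**Figure D4:**
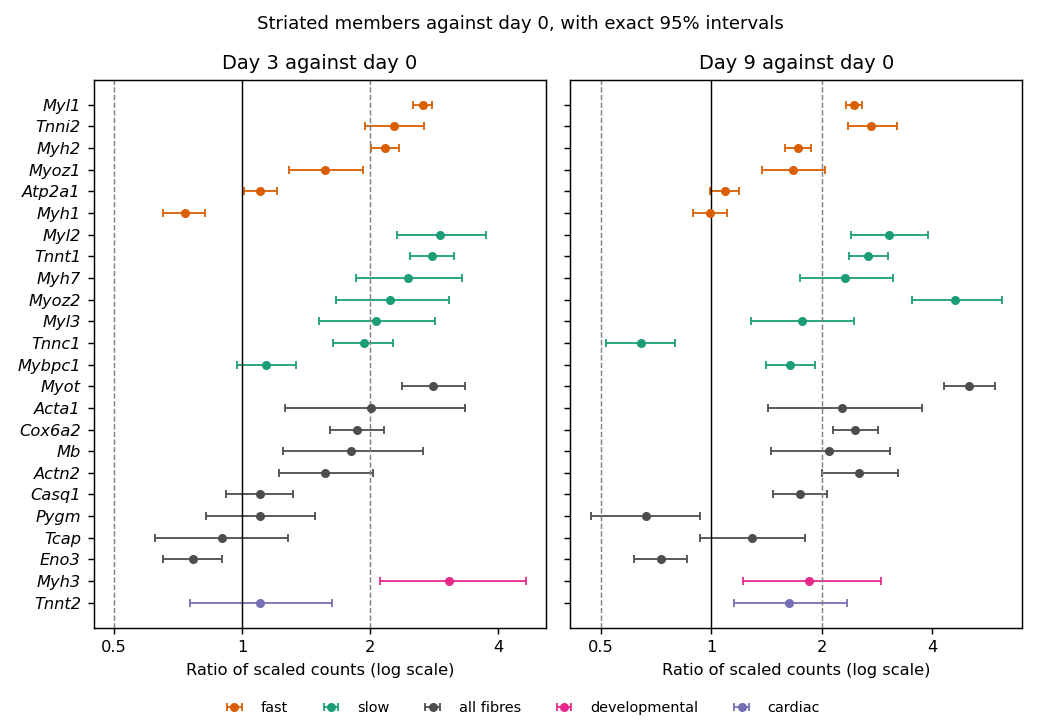
Ratio of scaled counts (log axis) on day 3 and on day 9 to day 0 for 24 striated members, with exact 95% intervals for counting error, coloured by the fibre type that is known to use the gene. Dashed lines mark 2-fold; on day 9 Myot and Myoz2 lie highest, at 5.03 and 4.60, and Tnnc1 lies lowest, at 0.643.

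Fast genes summed to 5111, 9966, 37 and 8903 counts and slow genes to 1188, 2559, 5 and 2373. The fast share of both was 81.1% (80.2 to 82.1), 79.6% (78.9 to 80.3) and 79.0% (78.2 to 79.7) on days 0, 3 and 9. Without Myl1, which held much of the fast sum, it was 72.2% (70.9 to 73.6), 64.1% (63.0 to 65.2) and 63.9% (62.7 to 65.0). With Myl1 the day 0 interval overlapped that of day 3 and not that of day 9, and without Myl1, a choice made after seeing the values, the day 0 share lay above both. On day 6 the sums were too small for a comparison of fibre types.

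Day 9 and day 3 stood closest. Among 24 striated members with enough counts, 1 was higher and 1 lower on day 9 than on day 3, beside 6.41% of all entries higher and 4.59% lower (11% in either direction). Tnnc1 was 3.00-fold (2.48 to 3.66) lower and Myoz2 was 2.06-fold (1.68 to 2.55) higher. Scaled by library totals, Myoz2 no longer passed. No non-striated member passed in either direction by the rule of size, and Actn1, at 1.94-fold (1.66 to 2.27), was nearest. In the pair of slow troponin genes Tnnt1 and Tnnc1, chosen after the values were seen, Tnnt1 held 62.1% (58.1 to 66.0) of the summed counts on day 0, 70.3% (67.9 to 72.6) on day 3 and 87.2% (85.1 to 89.1) on day 9.

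Muscle genes outside the rule were read from a list of 96 further symbols of skeletal muscle, of which 75 had an entry. The list was compiled with earlier results of these data known. Of these, 22 of 24 with enough counts were lower on day 6 than on day 0, 30 of 32 were lower than on day 3, and none was higher in either comparison, beside 13.1 and 6.74% of all entries lower. On day 3 and day 9 against day 0, 9 of 33 and 17 of 33 were higher and none lower, beside 8.54 and 10.7% of all entries higher. Ckmt2, the mitochondrial creatine kinase of muscle, had 169, 604, 0 and 886 counts, and Trdn, the triadin of the calcium release complex, had 162, 177, 0 and 241. Fhl1, a LIM protein of muscle, had 885, 1327, 106 and 2556 counts, and Hspb6, a small heat shock protein of muscle, had 292, 189, 12 and 447. These 4 genes were lowest on day 6 and highest on day 9, as Myot was. Mustn1, a nuclear protein of muscle and bone, had 259, 442, 185 and 613 counts. Pfkm, the muscle phosphofructokinase, had 195, 167, 43 and 169, and Slc2a4, the insulin-regulated glucose transporter, had 175, 148, 34 and 162. The last 3 kept a larger part of their day 0 counts on day 6 than those 4 genes did. Precursor markers were scarce: the myogenic factor Myod1 had 5, 9, 0 and 2 counts, and Myog, which drives fusion into fibres, had 0, 3, 0 and 0.

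Across all entries, 3764 had at least 50 counts in each of days 0, 3 and 9. Of these, 32 had a scaled day 6 level at most a 20th of the lowest level of those days. Of the 32, 19 were striated members, 11 were in the list of further muscle genes and 2 had no symbol. The same gap in the day 0, day 3 or day 9 library was found for 2, 1 and 0 of 3746, 3626 and 3741 entries. No member was among them. Of the 2 in the day 0 library, 1 had no symbol and 1 was Eif2s3y, a gene of the Y chromosome, with 0, 118, 92 and 130 counts. Those of the 11 with the highest day 0 counts were Ckmt2, Trdn, Nrap, Klhl41, Csrp3, Tmod4, Ankrd23, Eef1a2, Srl and Hfe2. All but the 2 without a symbol were in one of the muscle lists. Those lists were compiled with earlier results of these data known, so this membership is a description alone.

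Markers of other cell types were read beside these results. Keratinocyte genes (16 entries) summed to 107853, 72450, 108989 and 83155 counts and fibroblast genes (15 entries) to 24005, 108288, 80711 and 73654, so markers of epidermis and dermis were read in every library. The keratinocyte sum rested mainly on Lgals7, Krt1, Dsp and Krt10. Krt9, the keratin of palm and sole epidermis and so the list's marker for footpad, had 153, 559, 6 and 40 counts, lowest on day 6 as the striated members were and low on day 9, when they were not. Its part in the muscle result was not tested. Smooth muscle genes (20 entries) summed to 1340, 2589, 1881 and 1711 counts, with Acta2, the smooth muscle actin, at 589, 1268, 956 and 648. Sweat gland and simple epithelium genes (8 entries) summed to 672, 1123, 148 and 724 and were also lowest on day 6, with 2 entries at 0 there and none at 0 on the other days. Krt19, a keratin of simple epithelium, had 84, 264, 5 and 85 counts. Adipocyte genes (10 entries) summed to 497, 1630, 595 and 1009, and endothelial genes (9 entries) to 466, 561, 774 and 479. Red blood cell genes (3 entries) summed to 35, 1529, 104 and 598, nearly all from Hbb, with 35, 1510, 104 and 579 counts. Hbb was high on days 3 and 9 as the striated members were, but lowest on day 0, when they were not. The part that tissue makeup had in the muscle result was not tested. Of the defining markers of skeletal muscle, Acta1, Neb, Ttn, Ckm, Myh1, Myh2, Myh4 and Myh7 were at 0 gene counts on day 6, though Ckm had at most 12 and Ttn at most 27 in any library. The striated members with the most counts on day 6 were Tnnt2 with 56, Myoz1 with 23 and Pvalb with 11, and an entry without a symbol described as titin had 569.

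Promoters were read because the striated members moved together between libraries. RefSeq windows of the 250 bases before the start, on build GRCr8, were found for 44 of the 53 members and 33 of the 38 striated ones. They were searched on both strands for a MEF2 site, the motif of a muscle transcription factor family, and for the letters CAGCTG (an E-box of the type that myogenic factors bind), CATTCC (the MCAT element) and TATAAA. A MEF2 match was found in 6 of the 33 striated windows (18.2%) and in 3.07% of all 27457 windows, and CAGCTG in 12 (36.4%) against 11.9%. CATTCC was found in 7 (21.2%) against 11.8%, and TATAAA in 11 (33.3%) against 13.1%. A MEF2 match can hold the letters TATAAA, and did in 133 of all windows. Of the 11 windows of non-striated members, 1 held a MEF2 match and 3 held CAGCTG. The windows of Myh1, Cox6a2 and Myoz2 are printed, as those striated members with a MEF2 match that had over 200 counts in a library and 0 on day 6, with all matched motifs in capitals, 5′ to 3′ on the strand of the gene.
Myh1, chr10:52384662-52384911, plus strand: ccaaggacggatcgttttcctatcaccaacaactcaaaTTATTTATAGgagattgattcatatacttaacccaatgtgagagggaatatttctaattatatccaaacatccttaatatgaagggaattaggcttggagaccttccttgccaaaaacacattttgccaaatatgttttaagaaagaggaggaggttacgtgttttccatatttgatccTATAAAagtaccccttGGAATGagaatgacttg
Cox6a2, chr1:192219717-192219966, minus strand: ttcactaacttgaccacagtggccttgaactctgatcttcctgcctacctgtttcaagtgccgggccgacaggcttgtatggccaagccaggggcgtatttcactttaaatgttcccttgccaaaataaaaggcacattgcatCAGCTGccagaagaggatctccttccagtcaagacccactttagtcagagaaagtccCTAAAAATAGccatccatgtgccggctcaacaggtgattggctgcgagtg
Myoz2, chr2:213852779-213853028, minus strand: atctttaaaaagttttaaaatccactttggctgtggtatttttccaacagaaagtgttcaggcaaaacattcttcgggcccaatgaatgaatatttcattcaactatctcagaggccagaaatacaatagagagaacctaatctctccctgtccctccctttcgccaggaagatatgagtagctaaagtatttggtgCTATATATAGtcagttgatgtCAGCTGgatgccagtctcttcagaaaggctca
The motifs were chosen with the members known, and which windows to print after the matches were seen. Windows of 300 bases, which reach past the start, were searched first and then shortened to leave out transcribed sequence; there a MEF2 match stood in 18.2% of striated and 3.37% of all windows, and CAGCTG in 39.4 and 15.1%. A match is a description of these letters, and the window of Myl1, at 0 counts on day 6 as well, held no MEF2 match and 2 TATAAA matches.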

How the data were processed

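The deposited gene counts are whole numbers, made by the authors as the total copies of a gene's tags, per the file headers; tags seen once are left out (lowest copy number 2). The column the authors headed TPM holds CPM, a count scaled to the tags seen at least 2 times and not to length, and served in an alternative only. The deposited tag lists hold every sequenced tag. The build was Rnor_6.0 per the submitters' processing notes; the aligner is not given in the sources used here, nor is the use of strand.

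Counts were joined by gene identifier and scaled with TMM factors of edgeR 4.0.16 (0.9775 to 1.0234), with a prior count of 0.5 and a floor of 3 counts for each library at 0. No model test was run, as 1 library a day gives no spread; DESeq2 1.42.0 gave size factors for an alternative. Intervals came from scipy 1.17.1. The size rule and its intervals were tried on simulated counts that held counting error only, so the trial says nothing about the spread between animals. Its altered genes had high mean counts, unlike the members at 0 on day 6. Alternatives changed scaling, count floor, interval, prior count, unit and tags.

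The members, classes and lists were chosen with earlier results of these data known. Members with at least 50 counts in a library were named, with up to 10 other genes with the day 6 gap and up to 5 further muscle genes by day 0 count. Lower members were named where a class needed it. Precursor genes and markers beside the cell type lists were named as examples after their values were seen.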

Additional observations from a re-analysis of the deposited data

How the results depend on the processing

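Over 12 counts of called members, 126 alternatives were run, 113 gave a count within 1.5 times, and 0 member calls turned to the opposite direction. With a floor of 200 counts, striated members called fell to 6 (day 3 against day 0), 11 (day 6 against day 0), 14 (day 6 against day 3) and 15 (day 9 against day 6), and non-striated members to 1, 3 and 0 against day 0 on days 3, 6 and 9, since fewer genes could pass. With no floor, 31 striated members were called on day 6 against day 0. With the authors' value plus 1, 1 non-striated member was called on day 3 against day 0, and with a prior count of 5, 1 was called on day 9 against day 0. On day 9 against day 3, 1 striated member was called with library totals, with totals without the 20 most abundant genes and with the authors' value. As shares of all tags seen at least 2 times, striated members held 0.227, 0.458, 0.00308 and 0.43% on days 0, 3, 6 and 9, the larger denominator lowering each. TMM factors without day 6 were added after seeing the data and moved no count. No paired analysis was possible because each day has 1 library. With 1 library a day, animals and days cannot be told apart.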

Other observations

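Tags that stood in no gene held more copies with the muscle-like gap than the striated members did. Of 1669 such tags with at least 50 copies on each of days 0, 3 and 9, 25 had a scaled day 6 level at most a 20th of the lowest of those. They summed to 15240, 23613, 139 and 23805 copies on days 0, 3, 6 and 9. The same gap in the day 0, day 3 or day 9 library was found for 10, 1 and 4 unassigned tags. The genes they come from were not identified here.

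Entries without a symbol that the files describe as titin were kept if they reached a minimum count, which left 4. They were chosen after their values were seen. Of the 4, 1 had the gap of the muscle genes (33, 112, 0 and 60 counts on days 0, 3, 6 and 9). The entry with the most counts had 387, 860, 569 and 1076, with no gap. A further 2 had 33, 28, 7 and 24 counts and 28, 41, 43 and 22. A description as titin therefore did not go with 1 pattern.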
